A study of Mus musculus with 12 samples.

Results

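The genes described here encode the subunits of the oxidative phosphorylation complexes of mitochondria and cytochrome c. They were chosen by symbol in the array annotation: symbols that begin with Ndufa, Ndufb, Ndufc, Ndufs, Ndufv, Uqcr, Cox4, Cox5, Cox6, Cox7, Cox8 or Atp5, plus the succinate dehydrogenase genes Sdha to Sdhd and Cycs, without assembly factors. This gave 83 of the 18193 genes that have a probe set of their own, of which 36 fell under complex I, 4 under complex II, 8 under complex III, 17 under complex IV and 17 under complex V, with Cycs as the remaining gene. Ndufa4 was counted under complex I by its symbol, although its protein is now regarded as a complex IV subunit. Cyc1, also a complex III subunit, lies outside the symbol rule. Ndufs6, Ndufa11 and Cox7b were not analysed here.

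The cells were B16-OVA, a murine melanoma line that expresses the model antigen ovalbumin, grown in vitro. The groups compared, of 3 arrays each, were MEKi at 72 h, DMSO at 72 h, MEKi at 24 h and DMSO at 24 h. MEKi cells received GDC-0623, a small molecule inhibitor of the kinase MEK, at 100 nM for 72 h or 24 h from the day after seeding, and DMSO cells received the solvent alone. All values come from 1 cell line, and the labels do not say whether the arrays of a group came from separate cultures, so a p-value here covers only how far the 3 arrays of a group lie apart, and that spread may be technical.

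Oxidative phosphorylation makes most of the ATP of a respiring cell. Complex I takes electrons from NADH and complex II takes them from succinate. Complex III passes them to cytochrome c, complex IV passes them on to oxygen, and complex V uses the resulting proton gradient to make ATP. Most subunits are encoded in the nucleus, where factors such as NRF-1 and the ETS factor GABP are known to bind many of their promoters, and PGC-1alpha is known as a coactivator of the programme.

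As a check of the cell type, all 7 melanocyte markers had log2 signals of 11.91 or more on all 12 arrays, with Dct, Tyrp1, Pmel and Mlana at 13.94 to 14.37. The 4 leukocyte markers were at 2.81 to 6.04, the 3 fibroblast markers at 3.72 to 7.51, the 2 endothelial markers at 3.42 to 5.28 and the 2 epithelial markers at 4.94 to 6.56. These ranges describe probe sets of unlike brightness and were not tested against each other. Some markers were called between MEKi and DMSO, namely Cd68 at 72 h (0.66, higher) and at 24 h Tyr (0.35), Mitf (0.34), Lyz2 (0.38) and Col1a2 (0.69), all higher, and Pdgfra (-0.36), lower. The log2 of the summed melanocyte signal was 16.54 to 16.58 with MEKi and 16.40 to 16.42 with DMSO at 24 h, that of the leukocyte list 7.13 to 7.34 and at most 7.05, and that of the fibroblast list 7.55 to 7.75 and 7.04 to 7.17. At 72 h the leukocyte list was at 7.29 to 7.42 with MEKi and 7.09 to 7.24 with DMSO, and the fibroblast list, in which Col1a2 was called lower than at 24 h with MEKi (-1.66), at 6.32 to 6.54 and 6.34 to 7.15. The part of these markers in the results was not tested.

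Targets of the MEK/ERK pathway fell under MEKi at both times. Dusp6, an ERK phosphatase, differed by -1.29 at 72 h and -1.41 at 24 h, and Etv5, an ERK-induced transcription factor, by -1.29 at 72 h and -4.06 at 24 h (log2, MEKi minus DMSO). Spry4, the remaining gene of this check, differed by -0.58 at 72 h and -2.08 at 24 h. With DMSO alone all 3 were also called lower at 72 h than at 24 h, by -0.53 to -3.60, beside 16.9% of all genes. The part of that fall in the smaller differences at 72 h was not tested. The arrays of the later time had a higher median signal and a narrower spread. The array median over probe sets was 5.39 to 5.42 with MEKi and 5.36 to 5.39 with DMSO at 72 h, against 5.33 to 5.34 with MEKi and 5.31 to 5.32 with DMSO at 24 h. The interquartile range was 4.06 to 4.07 with MEKi and 4.07 to 4.19 with DMSO at 72 h, against 4.24 to 4.26 with MEKi and 4.29 to 4.33 with DMSO at 24 h.

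Most subunit genes had a bright probe set. Of the 83 genes, 78 had a mean above 5.363, the median over probe sets, and 71 had a mean log2 signal of at least 11, as had 1316 of all 18193 genes. The exceptions below the median were Ndufb4, Cox6b2, Cox7a1, Cox7b2 and Cox8b. Other probe sets of Ndufb4 are shared with Ndufb4b and Ndufb4c and were left out. Its values here thus rest on a dim probe set with a mean of 3.78. A level is given below as log2 signal of the gene's brightest own probe set, and a difference as log2 with its standard error. A gene is called when limma's adjusted p, computed over all 45037 probe sets tested, was under 0.05. Levels of different subunit genes were not set against each other, since probes differ in brightness.

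With 24 h of MEKi, most subunit genes lay slightly above DMSO, but the shift was small. The difference was positive for 64 of 83 genes and negative for 18, with a median of 0.053 and a range of -0.18 to 0.33. Over all 18193 genes 51.7% of differences were positive and the median was 0.007, and over the 1316 genes of at least 11 the share was 49.4% and the median -0.003. The median deviation of the 83 genes from their DMSO 24 h mean was 0.053, 0.067 and 0.033 on the MEKi 24 h arrays and 0.003, 0.003 and -0.007 on the DMSO 24 h arrays. All MEKi arrays of that time thus lay above all DMSO arrays in this summary. The arrays of the treatments also stood apart at 24 h in technical measures. The 3' to 5' difference of the Phe spike-in was 1.39 to 1.59 with MEKi and 1.24 to 1.32 with DMSO, the mean signal of the polyA spike-ins was 7.118 to 7.234 and 7.236 to 7.391, and the interquartile ranges given above did not overlap. Their part in the shift was not tested.

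At 24 h Ndufv3 alone was called higher and none was called lower, whereas 5.01% of all genes were called higher and 5.86% lower. This count depended on the setting, since 15 genes were higher and 1 lower with a trended and robust prior, 4 were higher with only probe sets above the median signal, 3 with the mean of a gene's probe sets and 0 with the replicate number as a block. The shares of all genes given above are those of the main fit. The shares under the other settings are not given here, so these counts stand without a background. At an unadjusted p under 0.05, 6 of the 83 subunit genes were higher and 1 was lower, beside 2361 and 2681 of all 18193 genes. The MEKi arrays all lay above the DMSO arrays for 34 of the 83 genes and all below for 4. Over all genes these non-overlapping shares were 16.2% and 18.3%, and over the genes of at least 11 they were 33.4% and 32.8%, against 46.5% and 5.63% of the 71 subunit genes of that brightness. The 95% interval of the difference lay within a 1.5-fold change for all 83 genes.

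The small shift was found in each large complex. Positive differences were measured for 29 of 36 complex I genes, 14 of 17 complex IV genes, 13 of 17 complex V genes and 5 of 8 complex III genes. The medians were 0.078 for complex I, 0.050 for complex III, 0.037 for complex IV and 0.050 for complex V. Complex II did not share it as a group, with a median of 0.008 over its 4 genes, and Cycs differed by 0.02. Among the genes that came nearest to the threshold were Ndufb9 (0.20, adjusted p = 0.0755 by limma) and Ndufa13 (0.20, adjusted p = 0.079), both accessory subunits of complex I.

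**Figure D1:**
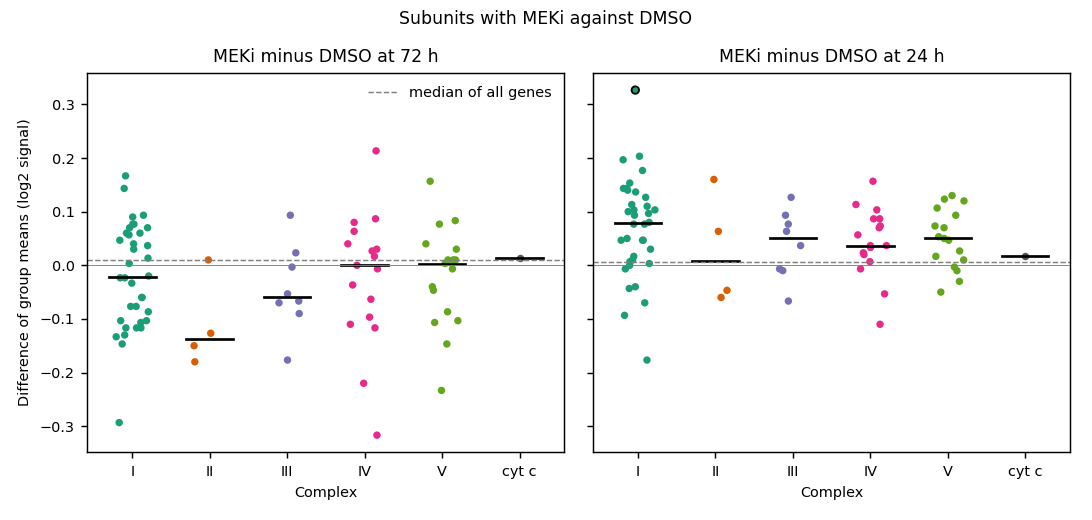
The log2 difference between MEKi and DMSO is plotted on the vertical axis for each of the 83 genes by complex, with 72 h in the left panel and 24 h in the right panel. Each dot is a gene, black bars are complex medians, a black edge marks a called gene and the dashed line is the median of all genes. At 24 h the complex I dots centre on 0.078 and 1 dot, Ndufv3, is called, whereas at 72 h the complex II median is at -0.138 and no gene is called.

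Ndufv3, an accessory subunit of the NADH-oxidising module of complex I, was the gene called at 24 h. At 72 h the gene was at 12.60, 12.48 and 12.76 with MEKi and at 12.77, 12.61 and 12.77 with DMSO, so that the groups overlapped. The 72 h difference was -0.10 ± 0.10 with an adjusted p of 0.631. At 24 h it was at 12.34, 12.44 and 12.28 on the MEKi arrays and at 12.12, 11.97 and 11.99 on the DMSO arrays. All MEKi arrays stood above all DMSO arrays. The difference was 0.33 ± 0.07 (SE, n = 3 arrays each, 1.25-fold), with limma's adjusted p at 0.0301. The call was not stable: with the replicate number as a block the adjusted p was 0.0531, and it was 0.0505 to 0.112 when any array other than MEKi 24 h replicate 3 was left out.

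The promoter of Ndufv3 is printed because the gene gave the only call between MEKi and DMSO on a brightest probe set and also the largest increase between the times with DMSO. The window holds the 250 bases before the RefSeq start site (GRCm38.p6), and capitals mark a CCAAT box read on the other strand. No NRF-1 core, ETS core or YY1 motif, as spelled out further on, was found in its RefSeq window.
Ndufv3, chr17:31519865-31520114, plus strand: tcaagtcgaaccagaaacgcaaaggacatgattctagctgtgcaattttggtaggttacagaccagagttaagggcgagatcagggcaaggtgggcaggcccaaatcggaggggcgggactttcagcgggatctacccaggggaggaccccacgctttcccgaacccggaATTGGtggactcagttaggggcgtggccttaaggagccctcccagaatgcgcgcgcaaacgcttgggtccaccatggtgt

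After 72 h of MEKi the upward shift was not seen. The difference was positive for 39 genes and negative for 44, with a median of -0.007, against 0.010 over all genes. No subunit gene was called by limma on its brightest probe set in either direction, whereas 4.03% of all genes were called higher and 5.14% lower. At an unadjusted p under 0.05, 1 gene was higher and 4 were lower, beside 2052 and 2180 of all 18193 genes. Other settings called 0 to 3 genes, all lower. MEKi arrays lay wholly above DMSO arrays for 13 genes and wholly below for 18, where all genes gave 14.7% and 14.4%. Over the genes of at least 11 these shares were 24.2% and 26.4%, against 14.1% and 23.9% of the 71 subunit genes of that brightness. The 95% interval lay within a 1.5-fold change for 81 genes, the exceptions being Cox7a1 and Cox7c, and within a 2-fold change for all 83. Of 74 other probe sets of these genes above the median signal, 2 were called, both lower, 1 of Sdha (-0.32, adjusted p = 0.0465) and 1 of Ndufs4 (-0.93, adjusted p = 0.00183).

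Ndufs7, a core subunit of complex I that carries an iron-sulfur cluster, came nearest to a call at 72 h in the main fit. It was at 10.89, 10.91 and 10.98 with MEKi and at 11.18, 11.26 and 11.22 with DMSO. Every MEKi array lay below every DMSO array, and the difference was -0.29 ± 0.08 (adjusted p = 0.0525 by limma). At 24 h the values were 11.11, 11.05 and 11.24 with MEKi and 11.29, 11.29 and 11.35 with DMSO, which again did not overlap, and the difference was -0.18 ± 0.07 (adjusted p = 0.168). The gene's other probe set gave the same 72 h difference of -0.29 ± 0.08 (adjusted p = 0.0565). In other settings Ndufs7 was called lower at 72 h. Limma's adjusted p was 0.0124 with all 12 arrays in 1 fit and 0.0337 with centred arrays. It was 0.0216 with only probe sets above the median signal, 0.0100 with a trended and robust prior and 0.0191 with the mean of its probe sets. With the replicate block it was not called.

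Sdhb, the iron-sulfur subunit of complex II, lay on opposite sides of DMSO at the 2 times. At 72 h it was at 12.90, 12.85 and 12.89 with MEKi and at 12.98, 13.01 and 13.03 with DMSO. At 24 h it was at 13.16, 13.20 and 13.19 with MEKi and at 13.03, 13.03 and 13.01 with DMSO. The groups overlapped at neither time. Neither difference passed the test by itself, at -0.13 ± 0.08 for 72 h (adjusted p = 0.407) and 0.16 ± 0.06 for 24 h (adjusted p = 0.13).

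The effect of MEKi at 72 h minus that at 24 h was negative for most subunit genes, and no gene passed the test of that difference on its brightest probe set. It was negative for 72 of 83 genes and positive for 10, with a median of -0.070. Over all genes 49.9% were positive and the median was 0.000, and over the genes of at least 11 the share was 44.7% and the median -0.022. Limma called 1.97% of all genes higher and 2.10% lower in this contrast, and 0 subunit genes in either direction. At an unadjusted p under 0.05, 0 were higher and 10 were lower, beside 1662 and 1738 of all 18193 genes. The lowest adjusted p values were those of Ndufv3 (-0.43 ± 0.12, adjusted p = 0.0792) and Sdhb (-0.29 ± 0.08, adjusted p = 0.0894). Other settings called 3 genes with only probe sets above the median signal, 4 with a trended and robust prior and 2 with the mean of a gene's probe sets, all lower and all including Ndufv3 and Sdhb, whose adjusted p was then 0.00278 to 0.0452. Other probe sets of Sdha (-0.45 ± 0.10, adjusted p = 0.0236) and Ndufs4 (-0.90 ± 0.14, adjusted p = 0.00473) were also called lower.

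**Figure D2:**
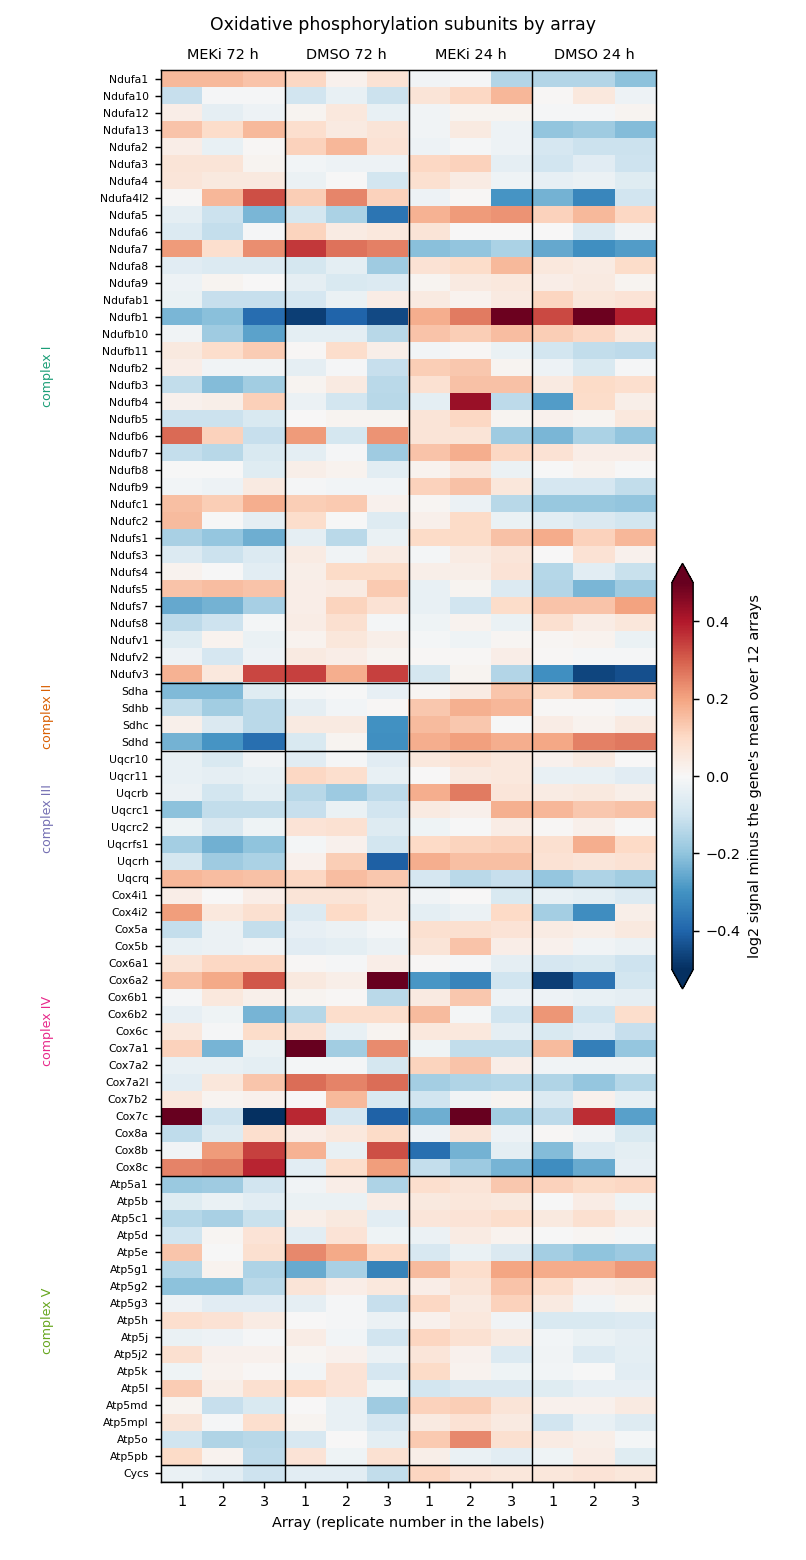
Each row of the heat map is a subunit gene, ordered by complex, and each column is an array, in the order MEKi 72 h, DMSO 72 h, MEKi 24 h, DMSO 24 h. Colour gives log2 signal minus the gene's mean over the 12 arrays, on a scale from -0.5 to 0.5. Rows such as Ndufb1 change colour between the times (differences of -0.58 with MEKi and -0.84 with DMSO), and no row was called between MEKi and DMSO at 72 h.

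Between the times more subunit genes were called, and in both directions. With MEKi, 5 genes were called higher and 13 lower at 72 h than at 24 h, beside 13.5% and 16% of all genes. With DMSO, 12 were called higher and 6 lower, beside 14.2% and 16.9%. Of all genes with a mean signal of at least 11, 13.4% were called higher and 22.6% lower with MEKi, and 14.5% and 21.9% with DMSO. The split between higher and lower depended on the scaling: with each array centred on its own median it was 3 higher and 24 lower with MEKi, and 6 higher and 9 lower with DMSO. The shares of all genes called with centred arrays are not given here. A 3' to 5' difference of the Dap spike-in transcript also moved with time, at 1.34 to 1.47 over the 72 h arrays and 1.96 to 2.16 over the 24 h arrays. Its part in these differences was not tested, and time of treatment and the growth of the culture cannot be told apart.

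In all, 30 subunit genes were called in at least 1 of the time comparisons and 6 in both, none in opposite directions. These 6 were Ndufb1, Sdhd, Ndufa5 and Ndufs1, which fell, and Uqcrq and Ndufa7, which rose. The shares of all genes called in either or in both time comparisons are not given here, so these counts stand without a background. Leaving out each array in turn, 10 of the 18 calls with MEKi held every time, namely those of Ndufa5, Ndufa7, Ndufb1, Ndufs1, Sdhb, Sdhd, Uqcrfs1, Uqcrh, Cox6a2 and Cox8c. With DMSO 8 of the 18 held, those of Ndufa4l2, Ndufa7, Ndufb1, Ndufv3, Uqcrq, Cox7a2l, Atp5e and Atp5g1. How many calls among all genes held in the same way is not given here. The other probe sets of the called genes with a signal above the median had the same sign in 13 of 14 cases with MEKi and 12 of 12 with DMSO.

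Complex I held calls in both directions. Ndufb1, an accessory subunit of the membrane arm, was lower at 72 h than at 24 h in both treatments. With MEKi it had 9.12, 9.14 and 8.97 at 72 h, against 9.53, 9.61 and 9.84 at 24 h. With DMSO it had 8.88, 8.95 and 8.90 at 72 h, against 9.68, 9.84 and 9.74 at 24 h. The 72 h arrays lay below the 24 h arrays throughout. The differences were -0.58 ± 0.10 with MEKi (adjusted p = 0.00201 by limma) and -0.84 ± 0.07 with DMSO (adjusted p = 0.000158). Ndufs1, the largest iron-sulfur subunit, fell by 0.31 ± 0.07 with MEKi (adjusted p = 0.00989) and by 0.23 ± 0.07 with DMSO (adjusted p = 0.0431), the DMSO call being lost when any array but DMSO 72 h replicate 3 was left out. Ndufa5, an accessory subunit, fell by 0.33 in both treatments (adjusted p = 0.0116 with MEKi and 0.0231 with DMSO), and Ndufb3, Ndufb10 and Ndufb7 were called lower with MEKi, at -0.25 to -0.29. Ndufv1, the subunit that binds NADH, was not called, with differences of -0.02 ± 0.07 with MEKi and 0.04 ± 0.07 with DMSO.

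Other complex I genes were higher at 72 h. Ndufa7, an accessory subunit, had 12.35, 12.22 and 12.37 with MEKi at 72 h, against 11.93, 11.94 and 11.98 at 24 h. With DMSO it had 12.49, 12.41 and 12.39 at 72 h, against 11.88, 11.83 and 11.86 at 24 h. It rose by 0.36 ± 0.08 with MEKi (adjusted p = 0.00645) and by 0.57 ± 0.07 with DMSO (adjusted p = 0.000586), with no overlap of the times. Ndufv3, whose arrays are given above, differed by 0.26 ± 0.09 with MEKi (adjusted p = 0.0638) and rose by 0.69 ± 0.08 with DMSO (adjusted p = 0.000522). The other complex I genes called higher with DMSO were Ndufa4l2, Ndufc1, Ndufa13, Ndufs5, Ndufa1, Ndufa2 and Ndufb6, at 0.22 to 0.38. Most of these calls were not stable. Ndufb6 was lost with all 12 arrays in 1 fit, with centred arrays and without any single array other than DMSO 72 h replicate 2. Ndufa1, Ndufa2 and Ndufs5 were likewise kept in only 1 of 6 cases with an array left out. Ndufa13 and Ndufc1 were kept in 2 of 6 and Ndufa4l2 in all 6.

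The differences of the 4 complex II genes were all negative between the times, with medians of -0.267 with MEKi and -0.122 with DMSO, beside 0.040 and 0.043 over all genes. All 4 had a mean signal of at least 11. Over all genes of that brightness the medians were -0.06 with MEKi and -0.04 with DMSO. Sdhd, a membrane anchor, had 11.29, 11.23 and 11.15 with MEKi at 72 h, against 11.71, 11.73 and 11.71 at 24 h, and fell by 0.49 ± 0.07 (adjusted p = 0.00104). With DMSO it had 11.45, 11.54 and 11.22 at 72 h, against 11.72, 11.78 and 11.79 at 24 h, and fell by 0.36 ± 0.09 (adjusted p = 0.0206). The DMSO 72 h replicate 3 was the lowest of that group for Sdhd and also for the anchor Sdhc, at 11.13 beside 11.48 and 11.48. Sdhb fell by 0.30 ± 0.07 with MEKi (adjusted p = 0.0106), and its difference was -0.02 ± 0.07 with DMSO (adjusted p = 0.883). Sdha, the catalytic flavoprotein, differed by -0.23 ± 0.08 with MEKi (adjusted p = 0.0635) and by -0.14 ± 0.07 with DMSO (adjusted p = 0.164). Its second probe set, also above the median signal, was called lower in both, by -0.68 ± 0.07 with MEKi (adjusted p = 0.000153) and -0.24 ± 0.08 with DMSO (adjusted p = 0.049), so the probe sets of Sdha differ in their calls.

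In complex III the Rieske protein gene Uqcrfs1 was at 11.64, 11.57 and 11.61 with MEKi at 72 h and at 11.91, 11.92 and 11.93 at 24 h. It fell by 0.31 ± 0.07 with MEKi (adjusted p = 0.00911) and differed by -0.15 ± 0.07 with DMSO (adjusted p = 0.175). The core protein gene Uqcrc1 differed by -0.23 ± 0.08 with MEKi (adjusted p = 0.0505) and fell by 0.23 ± 0.07 with DMSO (adjusted p = 0.0352). Uqcrq, which encodes a small subunit, rose in both, by 0.27 ± 0.07 with MEKi (adjusted p = 0.019) and by 0.31 ± 0.07 with DMSO (adjusted p = 0.00954). Uqcrh, the hinge protein, fell by 0.30 ± 0.07 with MEKi (adjusted p = 0.0116). With DMSO its replicate 3 at 72 h was low, at 12.30 beside 12.73 and 12.83, and the difference of -0.16 ± 0.13 was not called.

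**Figure D3:**
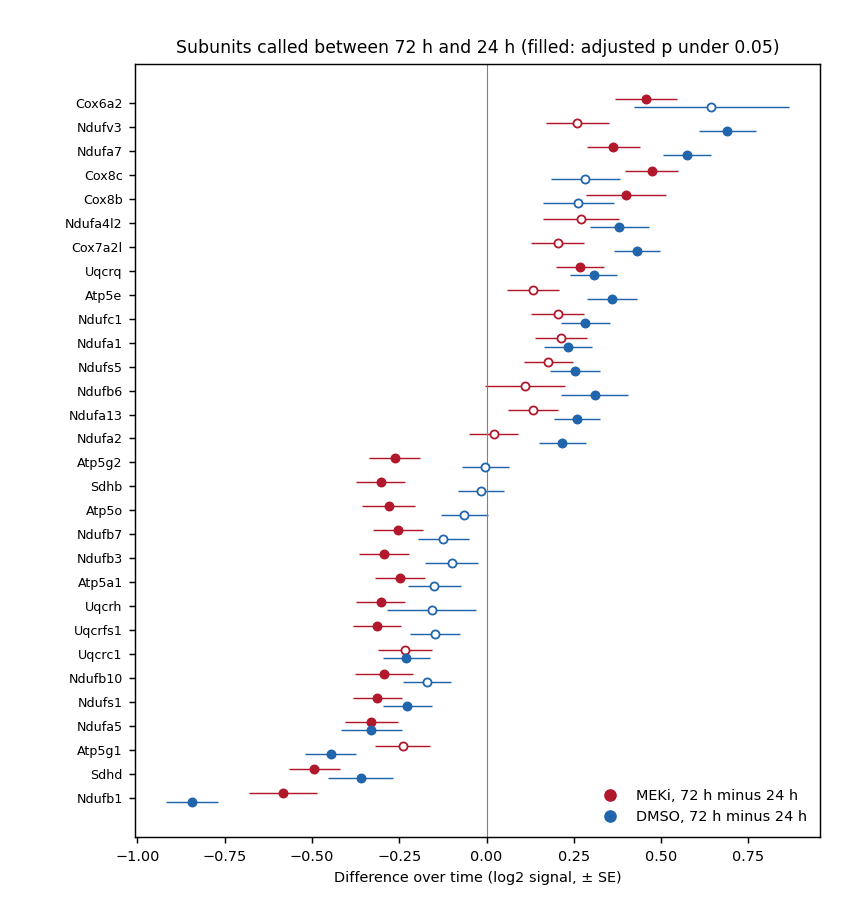
The log2 difference between 72 h and 24 h is shown for the 30 subunit genes called in either time comparison, with MEKi in red and DMSO in blue. Filled points are called genes and bars are ± SE. Ndufb1 is lowest in both treatments, at -0.58 with MEKi and -0.84 with DMSO, and Ndufv3 is highest with DMSO at 0.69.

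On brightest probe sets, complex IV had no gene called lower between the times. Its ubiquitous subunit genes differed little, with Cox4i1 between 13.03 and 13.17 and Cox5a between 12.73 and 12.93 on all 12 arrays. On brightest probe sets the 3 calls with MEKi fell on isoforms known from other tissues, Cox8c, Cox6a2 and Cox8b. The 1 call with DMSO was that of Cox7a2l. Other probe sets were called lower, with MEKi those of Cox6b1 (-0.23, limma's adjusted p = 0.0439) and Cox5b (-0.32, adjusted p = 0.0281). Another of Cox5b was lower with DMSO (-0.47, adjusted p = 0.00729). A second probe set of Cox6c was higher in both (0.28 with MEKi, adjusted p = 0.0473, and 0.35 with DMSO, adjusted p = 0.00697), as was that of Cox8c with DMSO (0.37, adjusted p = 0.0412). Cox8c, known as a testis isoform, had 8.50, 8.51 and 8.63 with MEKi at 72 h, against 8.13, 8.07 and 8.02 at 24 h, and rose by 0.47 ± 0.08 (adjusted p = 0.00164). With DMSO it had 8.20, 8.34 and 8.46 at 72 h, against 7.94, 8.00 and 8.21 at 24 h. These groups overlapped, and the difference was 0.28 ± 0.10 (adjusted p = 0.0673).

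Cox6a2, the heart and skeletal muscle isoform of Cox6a, rose by 0.46 ± 0.09 with MEKi (adjusted p = 0.0044). It had 6.43, 6.47 and 6.59 at 72 h, against 5.99, 5.95 and 6.18 at 24 h, and the call was lost with all 12 arrays in 1 fit (adjusted p = 0.0865). With DMSO it had 6.33, 6.31 and 7.20 at 72 h, against 5.81, 5.91 and 6.19 at 24 h. Replicate 3 of 72 h was the highest array, and the difference of 0.64 ± 0.22 was not called (adjusted p = 0.0637). Cox6a1, the ubiquitous isoform, differed by 0.11 ± 0.07 with MEKi and 0.10 ± 0.07 with DMSO. Cox8b rose by 0.40 ± 0.11 with MEKi (adjusted p = 0.0295), on a probe set that lay between 4.39 and 5.11 on all arrays, below the median probe set, and the call was lost with centred arrays (adjusted p = 0.0594). Cox8a differed by -0.04 ± 0.08. Cox4i2, Cox6b2 and Cox7a1 were not called in any comparison, with levels of 5.70 to 6.22, 3.99 to 4.44 and 3.31 to 4.39.

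Cox7a2l, a factor of complex III and IV supercomplexes, was called higher at 72 h with DMSO. With MEKi it had 11.45, 11.56 and 11.64 at 72 h, against 11.33, 11.35 and 11.36 at 24 h, with a difference of 0.20 ± 0.08 (adjusted p = 0.0829). With DMSO it had 11.78, 11.75 and 11.78 at 72 h, against 11.35, 11.31 and 11.36 at 24 h, with a difference of 0.43 ± 0.07 (adjusted p = 0.0019). The 72 h arrays lay above the 24 h arrays in both treatments. At 72 h its MEKi arrays were all below its DMSO arrays, with a difference of -0.22 ± 0.08 that did not pass (adjusted p = 0.164). Its ubiquitous paralog Cox7a2 was not called in any comparison.

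The c subunit of complex V is encoded by 3 paralogs whose mature proteins are the same, and calls between the times differed among them. Atp5g1 was at 11.60, 11.76 and 11.59 with MEKi at 72 h, 11.49, 11.58 and 11.41 with DMSO at 72 h, 11.90, 11.83 and 11.94 with MEKi at 24 h and 11.93, 11.93 and 11.96 with DMSO at 24 h. Both 72 h groups lay below both 24 h groups. Between the times it differed by -0.24 ± 0.08 with MEKi (adjusted p = 0.0526) and fell by 0.45 ± 0.07 with DMSO (adjusted p = 0.00257).

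Atp5g2 was low in 1 group alone. It was at 11.93, 11.93 and 12 with MEKi at 72 h, 12.20, 12.17 and 12.19 with DMSO at 72 h, 12.17, 12.20 and 12.28 with MEKi at 24 h and 12.22, 12.17 and 12.18 with DMSO at 24 h. The MEKi 72 h arrays lay below all others. The difference between the times with MEKi was -0.26 ± 0.07 (adjusted p = 0.0257), which was lost when any of 5 of the 6 arrays was left out, and between MEKi and DMSO at 72 h it was -0.23 ± 0.08 (adjusted p = 0.108). Atp5g3 was not called in any comparison and lay between 13.37 and 13.60 on all arrays. The difference of the MEKi effects was 0.21 ± 0.10 for Atp5g1 (adjusted p = 0.357) and -0.26 ± 0.09 for Atp5g2 (adjusted p = 0.147). The paralogs were not tested against each other.

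Among the other complex V genes, Atp5a1, the alpha subunit of the catalytic head, fell by 0.25 ± 0.07 with MEKi between the times (adjusted p = 0.0316), while Atp5b, the beta subunit, differed by -0.10 ± 0.07 with MEKi and -0.01 ± 0.07 with DMSO. The call of Atp5a1 was lost when any of 5 of the 6 arrays was left out. Atp5e, the epsilon subunit, differed by 0.13 ± 0.07 with MEKi (adjusted p = 0.219) and rose by 0.36 ± 0.07 with DMSO (adjusted p = 0.0062). Atp5o, the stalk subunit, fell by 0.28 ± 0.08 with MEKi (adjusted p = 0.0227) and differed by -0.06 ± 0.07 with DMSO. Cycs was not called on its brightest probe set, with differences of -0.14 ± 0.07 in both time comparisons. Its other probe sets disagreed. That at a mean of 12.7 gave -0.27 with MEKi (adjusted p = 0.0716) and was called lower with DMSO (-0.23, adjusted p = 0.0318). That at 13.2 gave -0.02 and 0.06, and that at 5.2 was called lower with MEKi (-0.57, adjusted p = 0.000484) but not with DMSO (-0.25).

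**Figure D4:**
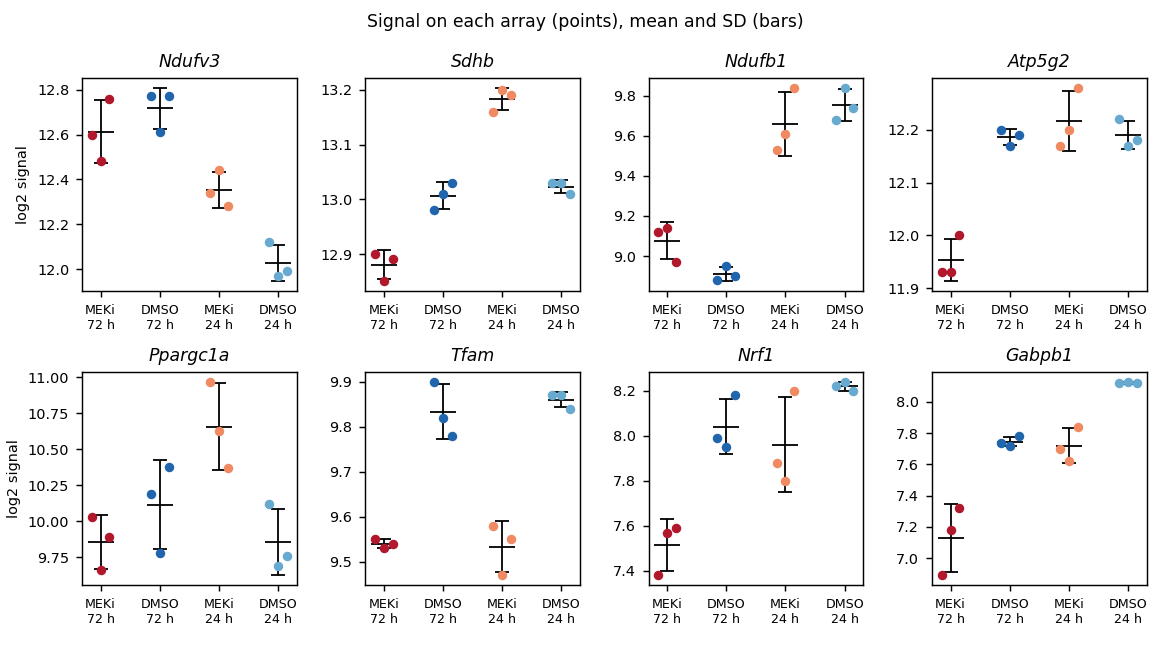
Log2 signal on the vertical axis is plotted for Ndufv3, Sdhb, Ndufb1, Atp5g2, Ppargc1a, Tfam, Nrf1 and Gabpb1, with the groups in the order MEKi 72 h, DMSO 72 h, MEKi 24 h, DMSO 24 h. Points are arrays and bars are mean ± SD of 3 arrays. Ppargc1a is highest with MEKi at 24 h, at 10.37 to 10.97, and the MEKi arrays of Tfam, at 9.47 to 9.58, lie below the DMSO arrays, at 9.78 to 9.90, at both times.

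Regulators of mitochondrial biogenesis are given as a description, and whether that list differs from the subunit genes or from all genes was not tested. Of the 24 measured genes on the list, 0 were called higher and 4 lower at 72 h, with a median of -0.113, and 1 higher and 9 lower at 24 h, with a median of -0.255. Of all genes 4.03% were called higher and 5.14% lower at 72 h, and 5.01% higher and 5.86% lower at 24 h, with medians of 0.010 and 0.007. The list was drawn up with earlier results of these data known. The gene called higher at 24 h was Ppargc1a, which encodes PGC-1alpha.

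At 72 h Ppargc1a was at 10.03, 9.66 and 9.89 with MEKi and at 10.19, 9.78 and 10.38 with DMSO, so that the groups overlapped, and the difference was -0.26 ± 0.15 (adjusted p = 0.401). At 24 h it was at 10.97, 10.63 and 10.37 with MEKi and at 10.12, 9.69 and 9.76 with DMSO, without overlap. The 24 h difference was 0.80 ± 0.16 (adjusted p = 0.0218 by limma), and all 5 of its own probe sets were called higher. When single arrays were left out the call held in 2 of 6 cases, with adjusted p of 0.0152 to 0.0782. The difference of the MEKi effects was -1.06 ± 0.25 and passed the test (adjusted p = 0.0339), but it held in only 4 of 12 cases with an array left out. With a trended and robust prior its adjusted p was 0.0527. The MEKi effect on Ppargc1a was thus lower at 72 h than at 24 h in this fit, with calls that depended on single arrays.

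Tfam encodes the factor that packages mitochondrial DNA and acts in its transcription. At 72 h it had 9.55, 9.53 and 9.54 with MEKi, against 9.90, 9.82 and 9.78 with DMSO. At 24 h it had 9.58, 9.47 and 9.55 with MEKi, against 9.87, 9.87 and 9.84 with DMSO. The groups overlapped at neither time. The difference was -0.29 ± 0.08 at 72 h (adjusted p = 0.0525) and -0.33 ± 0.06 at 24 h (adjusted p = 0.0166), the 24 h call being kept in 1 of 6 cases with an array left out. Its second probe set gave -0.28 at 72 h (adjusted p = 0.0961) and -0.20 at 24 h (adjusted p = 0.112).

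Nrf1, the NRF-1 gene, was at 7.38, 7.57 and 7.59 with MEKi and at 7.99, 7.95 and 8.18 with DMSO at 72 h, without overlap. The difference was -0.53 ± 0.10 (adjusted p = 0.0113, kept in 5 of 6 cases with an array left out), a second probe set gave -0.61 (adjusted p = 0.00498), and its 2 dimmer probe sets gave -0.04 and 0.06 and were not called. At 24 h the difference was -0.26 ± 0.10 (adjusted p = 0.166). Gabpb1, which encodes the beta subunit of GABP, had 6.89, 7.18 and 7.32 with MEKi at 72 h, against 7.74, 7.72 and 7.78 with DMSO. At 24 h it had 7.70, 7.62 and 7.84 with MEKi, against 8.12, 8.13 and 8.12 with DMSO, again without overlap. It fell by 0.62 ± 0.11 at 72 h (adjusted p = 0.00987) and by 0.40 ± 0.07 at 24 h (adjusted p = 0.0141), the 24 h call being kept in 1 of 6 cases with an array left out, but its second probe set gave -0.10 at 72 h (adjusted p = 0.663) and -0.43 at 24 h (adjusted p = 0.012). Gabpa, the DNA-binding subunit, fell by 0.46 ± 0.11 at 72 h (adjusted p = 0.0339), kept in 1 of 6 such cases, and its second probe set gave -0.05 (adjusted p = 0.821).

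Tfb1m, a mitochondrial ribosomal RNA methyltransferase, was the remaining regulator called lower at 72 h (-0.38 ± 0.09, adjusted p = 0.0315). Besides Tfam and Gabpb1, the genes called lower at 24 h were Twnk, the mitochondrial DNA helicase, Polg2, the accessory subunit of its polymerase, Tfb2m and Mterf1a, which act in mitochondrial transcription, the coactivator gene Pprc1, the prohibitin gene Phb2 and the mitochondrial chaperone gene Hspa9. Their differences lay between -0.29 and -0.47.

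The lists of genes that work with the subunits are given beside the same shares of all genes called, 4.03% higher and 5.14% lower at 72 h and 5.01% and 5.86% at 24 h. Of 47 assembly factors, 1 was called higher and 1 lower at 72 h and 3 higher and 3 lower at 24 h. Those at 24 h were the complex I factors Ndufaf3 (0.34) and Tmem126b (0.31) and the complex II factor Sdhaf4 (0.40), which rose, and Ndufaf6 (-0.51), Cox15 (-0.33) and Cox18 (-0.24), which fell. Of 29 electron carriers and shuttles, 1 was called in each direction at each time, and of 19 tricarboxylic acid cycle genes 1 was higher and 2 lower at 72 h and 1 higher and 0 lower at 24 h. Of 76 mitochondrial ribosomal genes, 1 was higher and 2 lower at 72 h and 1 higher and 7 lower at 24 h.

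Between the times, 3 of the 76 ribosomal genes were called higher and 23 lower with MEKi, beside 13.5% and 16% of all genes, and 2 higher and 30 lower with DMSO, beside 14.2% and 16.9%. Of the 47 assembly factors the calls were 5 higher and 10 lower with MEKi and 8 higher and 18 lower with DMSO. The difference between these lists and the subunit genes was not tested.

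Since NRF-1 and GABP are known regulators of these genes, the RefSeq promoter windows of 68 matched subunit genes were searched on both strands. Each window runs from 250 bases before to 50 bases after the start. A gene counted as a match if any of its windows held the motif, and 5 of the 68 genes have several windows. The NRF-1 core CGCATGCG, a palindrome, was found for 9 of the 68 genes (13.2%), against 3.28% of 14368 genes with their own probe set. Of all 32851 windows, counted singly, 1.87% held it, which is a share of windows and not of genes. The ETS core CCGGAAG was found for 17 genes (25%, against 15% of genes and 8.86% of windows). The CCAAT box was found for 29 (42.6%, against 42.0% and 37.4%) and the YY1 motif AAGATGG for 10 (14.7%, against 7.55% and 6.34%). No motif contains another, and 21 of the 68 genes had none of them. A match is a description of the letters in the window and says nothing of binding in these cells.

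The stretches around the NRF-1 core are printed for the 7 genes in which it lies wholly before the start site, since Nrf1 signal was lower with MEKi at 72 h. Capitals mark the core, with up to 18 bases on either side (RefSeq, GRCm38.p6).
Ndufa8, chr2:36049339-36049365, minus strand: cttgcgcgtcgctggagaCGCATGCGc
Cox6a1, chr5:115349094-115349137, minus strand: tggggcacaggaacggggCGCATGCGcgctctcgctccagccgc
Atp5g2, chr15:102671063-102671106, minus strand: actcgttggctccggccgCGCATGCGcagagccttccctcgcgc
Atp5j, chr16:84835098-84835141, minus strand: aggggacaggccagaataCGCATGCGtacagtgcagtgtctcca
Atp5k, chr5:108434423-108434466, minus strand: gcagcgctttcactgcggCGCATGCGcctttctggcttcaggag
Atp5l, chr9:44920958-44920992, minus strand: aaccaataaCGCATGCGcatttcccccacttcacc
Cycs, chr6:50566605-50566648, minus strand: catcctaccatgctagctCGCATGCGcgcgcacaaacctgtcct

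The medians of the 9 genes with the core under MEKi were 0.010 at 72 h and 0.047 at 24 h, beside -0.023 and 0.050 over the 59 other matched genes, and no gene with the core was called at either time. Of the printed genes, Atp5g2 gave the largest difference at 72 h, as described above. The difference between genes with and without the core was not tested.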

How the data were processed

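RNA of the 12 samples was hybridised to Affymetrix mouse expression arrays after 3' in vitro transcription labelling. The values deposited by the authors are log2 signals normalised by RMA. Software versions of that step are not given in the sources used here. Precision is limited by the 3 arrays of each group. The table held 45101 probe sets, of which 64 were controls and 45037 were tested. Of these, 34945 were paired with 1 gene in GEO's platform annotation, 932 with several and 9160 with none. Only probe sets of 1 gene were used, which left out 10 that a subunit gene shares with another gene, and the brightest by mean over the 12 arrays stood for a gene. The 83 genes have 173 own probe sets, and 50 genes have more than 1.

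Differences were tested two-sided with limma 3.58.1 (lmFit and eBayes) in R 4.3.3, on the 6 arrays of each pair of groups and, for the difference of the MEKi effects, on all 12 arrays. P-values were adjusted by Benjamini-Hochberg over all 45037 probe sets, with a threshold of 0.05. Comparisons that share arrays are not independent. The scripts were tested on simulated data. Genes named in the text were, per comparison, up to 6 called genes with the largest difference in each direction whose groups do not overlap, plus core subunits and paralogous isoforms whatever their values. Other genes, such as Ndufs7, Sdhd, Ndufb9 and the regulators, were named after their values were seen. The subunit genes and the lists were chosen with earlier results of these data known.

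Whether replicate numbers pair the samples was examined. Within a time, the deviations of MEKi and DMSO arrays of the same number correlated at 0.307, 0.271 and 0.214 for 72 h and 0.207, 0.283 and 0.282 for 24 h over probe sets above the median signal, and at 0.189, 0.163 and 0.130 for 72 h and 0.073, 0.125 and 0.151 for 24 h over all probe sets. They were taken as pairs within a time and not between times. The main tests were nevertheless unpaired, and the replicate number entered only as the block among the alternatives. Alternatives were all 12 arrays in 1 fit, the replicate block, arrays centred on their medians, probe sets above the median signal only, a trended and robust prior, a mean over the own probe sets of a gene, and omission of single arrays. Promoter windows came from RefSeq, where 68 of the 83 genes matched and 15 did not.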

Additional observations from a re-analysis of the deposited data

Results flagged for a closer look

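Some subunit genes had MEKi arrays wholly below the DMSO arrays at 72 h and wholly above them at 24 h. The share of all genes with such a reversal was not counted. Wholly below at 72 h lay 14.4% of all genes and 26.4% of those with a mean signal of at least 11. Wholly above at 24 h lay 16.2% and 33.4%. Ndufa2, a complex I subunit, differed by -0.1167 at 72 h and 0.08 at 24 h, and Ndufa7 by -0.1167 at 72 h and 0.0933 at 24 h. Ndufs4 differed by -0.0867 at 72 h and 0.1433 at 24 h. Sdhb of complex II differed by -0.1267 at 72 h and 0.16 at 24 h, and Atp5o of complex V by -0.0867 at 72 h and 0.13 at 24 h.

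The difference of the effects was tested with limma over all 12 arrays and passed for none of their brightest probe sets, with adjusted p of 0.279 for Ndufa2, 0.292 for Ndufa7, 0.205 for Ndufs4, 0.0894 for Sdhb and 0.267 for Atp5o. Another probe set of Ndufs4 passed it (-0.90 ± 0.14, adjusted p = 0.00473). The difference was called for Sdhb where only probe sets above the median signal were tested (adjusted p = 0.0213), with a trended and robust prior (adjusted p = 0.00278) and with the mean of the gene's probe sets (adjusted p = 0.0302).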

How the results depend on the processing

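No called difference of a named subunit gene changed sign under these alternatives, but 55 values of single genes lost their call. The counts of called subunit genes depended on the setting, and the cause was not tested. The shares of all genes called under each alternative are not given here, so the counts below stand without a background. For MEKi against DMSO at 72 h, where no gene was called, the count was 3 with all 12 arrays in 1 fit, 1 with centred arrays, 2 with brighter probe sets only, 3 with a trended and robust prior and 2 with the mean of a gene's probe sets, all lower. At 24 h the count of 1 became 0 with the replicate block, 4 with brighter probe sets, 16 with the trended prior (15 higher, 1 lower) and 3 with the mean of probe sets, and lay between 0 and 2 with an array left out. For the difference of the MEKi effects it was 3 with brighter probe sets, 4 with the trended prior and 2 with the mean of probe sets, all lower, and 0 to 1 with an array left out. Between the times, the count of 18 with MEKi became 30 with brighter probe sets, 40 with the trended prior, 30 with the mean of probe sets and 10 to 16 with an array left out (11 without MEKi 24 h replicate 1 and 10 without replicate 2). The count of 18 with DMSO became 30 with the trended prior and 8 to 19 with an array left out (9, 8 and 9 without DMSO 24 h replicates 1, 2 and 3, and 10 without DMSO 72 h replicate 1). Between times the samples share only a number, and the replicate block gave 18 calls with MEKi and 15 with DMSO. Within a time the block changed no call but that of Ndufv3 at 24 h.

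The median over the subunit genes at 72 h was -0.033 with centred arrays and -0.032 without DMSO 72 h replicate 3. Between the times with MEKi it was -0.127 with centred arrays and -0.093 with the mean of probe sets. With DMSO it was -0.063 with centred arrays and 0.033 without DMSO 72 h replicate 3. With 3 arrays a group, the median standard error in the main fit was 0.079 at 72 h and 0.060 at 24 h. How small a difference could be called depended on the prior. Ndufb11 at 24 h (0.10) had a standard error of 0.057 in the main fit and was not called. With the trended and robust prior the standard error was 0.031, and the gene was called higher.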

Other observations

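Some probe sets of a gene disagreed. Of the other probe sets above the median signal of genes whose brightest one was not called, 15 of 60 were called between the times with MEKi (2 higher, 13 lower) and 12 of 62 with DMSO (3 higher, 9 lower). Between MEKi and DMSO 2 of 74 were called at 72 h, both lower, and 0 of 74 at 24 h. A dimmer probe set of Ndufs4 with a mean signal above the median probe set differed by -0.93 ± 0.11 between MEKi and DMSO at 72 h (adjusted p = 0.00183 by limma), while the brightest one differed by -0.09. A probe set of Cycs at 5.20, below the median probe set, differed by 0.47 ± 0.07 at 24 h (adjusted p = 0.00666), while the brightest one, at 13.5, differed by 0.02.

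Cox7c, a small complex IV subunit, followed the replicate number within each time. At 72 h it had 7.94, 7.20 and 6.78 with MEKi, against 7.68, 7.22 and 6.90 with DMSO. At 24 h it had 7.06, 7.85 and 7.13 with MEKi, against 7.17, 7.67 and 7.03 with DMSO. In both treatments replicate 1 was the highest at 72 h and replicate 2 at 24 h.

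Among genes that feed the respiratory chain, Coq8a, a kinase-like protein of coenzyme Q synthesis, fell by 0.95 under MEKi at 72 h (adjusted p = 0.00579 by limma), and Coq10b, a coenzyme Q-binding protein, rose by 0.61 (adjusted p = 0.00489). Dhodh, the pyrimidine synthesis enzyme that passes electrons to coenzyme Q, fell by 0.47 at 24 h (adjusted p = 0.0109). In the tricarboxylic acid cycle list, Ogdh rose by 0.44 at 72 h (adjusted p = 0.0376), Idh2 fell by 0.43 (adjusted p = 0.0127) and Pcx fell by 0.53 (adjusted p = 0.00688), and the pyruvate carrier gene Mpc1 rose by 0.42 at 24 h (adjusted p = 0.00903).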
